A study of Mus musculus with 2 samples.

Results

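The genes of the proteasome were followed in acutely dissociated primary mouse pituitary cells that had been kept in RNA-Best or in RNAlater, which are reagents that hold RNA in place until it is extracted. The genes were taken by symbol: every protein-coding gene whose symbol starts with Psma to Psmg and a number was a member, which took in Psmc3ip and Psme2b with their further letters. This gave 50 members among 21560 protein-coding genes, in a table of 47069 genes. Of these members, 14 formed the standard 20S core, 17 the 19S regulatory particle, 3 the immunoproteasome, and the remainder were assembly chaperones, activators, tissue-restricted core subunits and 1 gene that shares only the name.

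Both groups came from whole pituitaries of randomly cycling C57BL/6 female mice aged 10 to 12 weeks, and the labels name no allele or drug. Each sample held between 500000 and 700000 dissociated cells pooled from 5 pituitaries, which were placed in the stabilizer at once. Poly(A) RNA was sequenced from 1 library per stabilizer. With 1 library each, the stabilizer, the pool of animals and the library preparation cannot be told apart, there is no replicate check, and no p-value is given.

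The proteasome is the main protease of the cytosol and nucleus and degrades proteins that carry ubiquitin chains. Its 20S core is a barrel of stacked rings: the outer rings are built of alpha subunits, which gate the entrance, and the inner rings of beta subunits, of which some carry the catalytic threonines. The 19S particle caps the barrel, and its base unfolds substrates with a ring of ATPases while its lid removes ubiquitin. In cells of the immune system, or after interferon, the catalytic subunits are replaced by immunoproteasome counterparts that favour peptides suited to antigen presentation. Pituitary endocrine cells make and secrete large amounts of peptide hormone, and the proteasome clears the proteins that fail to fold in such cells.

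The total was 53915047 counts in RNA-Best and 44917492 in RNAlater. Levels are CPM, counts scaled to each library's total, and log2 ratios are RNA-Best over RNAlater with 0.5 CPM added to each level, so a positive ratio means a higher level in RNA-Best. The 95% interval beside a ratio is the exact conditional binomial (Clopper-Pearson) interval of the ratio of both counts, taken without the added 0.5 CPM. It covers counting error only, not the spread between animals or libraries. A gene was counted as higher or lower in RNA-Best where its interval lay wholly on that side of 0. The hormone genes that define the tissue were abundant, with growth hormone (Gh) at 61040 CPM in RNA-Best and 59379 in RNAlater and prolactin (Prl) at 235654 and 172302 CPM. Endothelial markers were lower in RNA-Best for 6 of 6 genes (median log2 ratio −1.15) and erythroid markers higher for 5 of 5 (median 0.79). In bulk samples, fewer cells of a type and less RNA per cell cannot be told apart.

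Proteasome genes as a family were slightly higher in RNA-Best. The members took 0.307% of all counts in RNA-Best and 0.265% in RNAlater. Of the 50 members, 48 reached a mean of 1 CPM, and of these 32 were higher in RNA-Best, 6 were lower and 10 were neither. Over all 16504 genes with that level, 20.2% were higher and 51.2% lower. The median log2 ratio of the 48 members was 0.19, against −0.18 over all genes, and 44 of the 48 lay above the all-gene median. Member transcripts were shorter than those of all genes (medians of 1.85 and 3.09 kb), and over all genes shorter transcripts had higher ratios. After the length trend of all genes was subtracted, the median was 0.17 for the members and 0.01 for all genes. By that measure 40 of the 48 lay above the trend. Differences were small in size: 0 of the 48 members reached a 2-fold difference in either direction, while 0.273% of all genes were at least 2-fold higher and 4.99% at least 2-fold lower. The members ranged from −0.52 for Psme4 to 0.77 for Psmd10. The endocrine markers moved the same way, with 7 of 7 hormone genes higher in RNA-Best, a median log2 ratio of 0.45 and 30.7% of all counts in RNA-Best beside 23.9% in RNAlater. Their part in the ratios of the family was not tested.

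The split between higher and lower depends on the scale. With TMM scaling (edgeR's weighted trimmed mean of ratios) every log2 ratio shifts up by 0.19, which made 41 members higher and 2 lower, and 34.63% of all genes higher and 35.16% lower. DESeq2 size factors shift the ratios by 0.18 and also gave 41 higher and 2 lower members, with 34.08% and 35.77% of all genes. With either scaling, the ratios of Psmb9, Psmd2, Psmd3, Psmf1 and Psmg2 change from negative to positive. A scaling shifts all members by nearly the same amount and so bears on their direction, not on the differences between them.

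**Figure D1:**
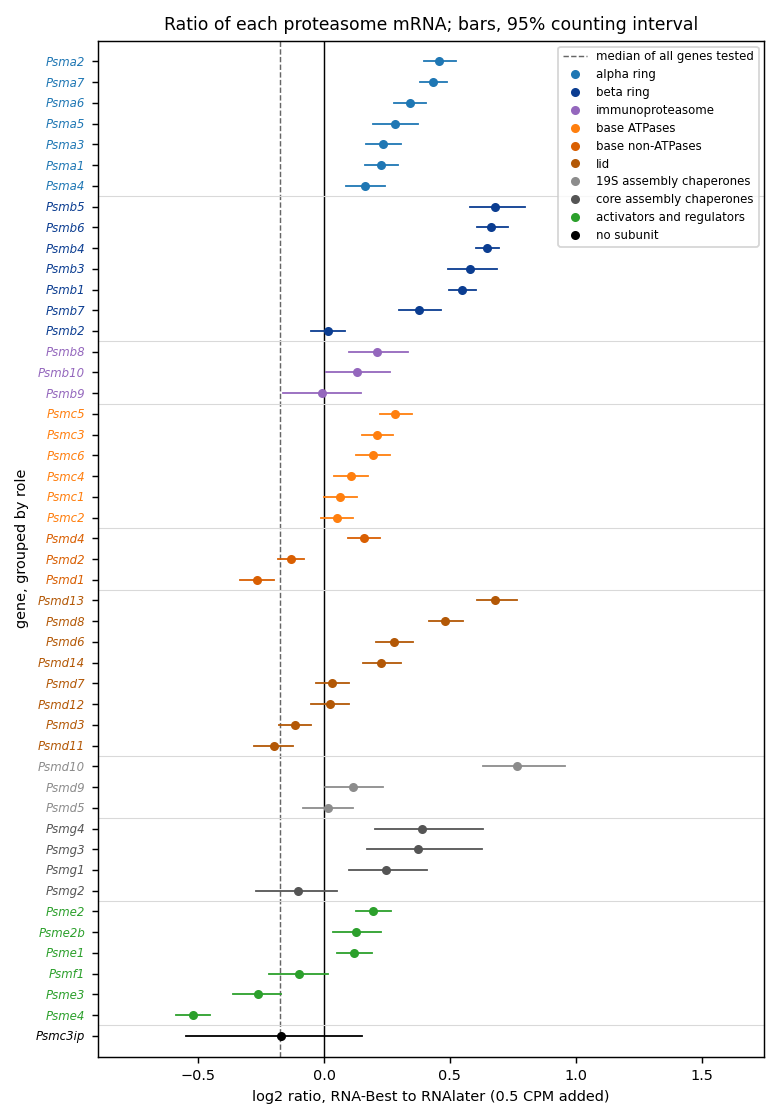
Log2 ratio of RNA-Best to RNAlater (horizontal axis, 0.5 CPM added) of each of the 48 members, 1 row per gene grouped and coloured by role, with bars for the exact 95% counting interval, a solid line at 0 and a dashed line at the all-gene median of −0.18. Psmd10 sits farthest right at 0.77 and Psme4 farthest left at −0.52, and the points of the alpha and beta rings lie between 0.02 and 0.68.

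The alpha ring was higher in RNA-Best in 7 of 7 genes, with a median log2 ratio of 0.28. Psma2 had the highest ratio of the ring. It was at 96.0 CPM in RNA-Best against 69.8 CPM in RNAlater (log2 ratio 0.46, interval 0.40 to 0.52). Psma4 had the lowest, with 59.7 CPM in RNA-Best against 53.3 CPM in RNAlater (log2 ratio 0.16, interval 0.09 to 0.24). The intervals of these ends of the ring did not overlap, so their ratios differed by more than counting error. Psma7, which drew the most counts of the ring, was at 133 CPM in RNA-Best against 98.8 CPM in RNAlater. Psma6 was at 93.6 and 73.9 CPM, and Psma1 at 84.5 and 72.2 CPM. The same order of libraries held for the rest, with Psma3 at 74.1 and 62.9 CPM and Psma5 at 45.3 and 37.2 CPM. Summed over the ring, the level was 587 CPM in RNA-Best against 468 CPM in RNAlater.

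The beta ring was further apart between the libraries, with 6 of 7 genes higher in RNA-Best and a median log2 ratio of 0.58. Its 3 catalytic genes were Psmb6 (caspase-like activity), Psmb7 (trypsin-like) and Psmb5 (chymotrypsin-like). Psmb5 was at 36.8 CPM in RNA-Best against 22.8 CPM in RNAlater (log2 ratio 0.68, interval 0.58 to 0.80), which was the highest of the ring. Psmb6 was at 111 and 69.8 CPM (log2 ratio 0.66, interval 0.61 to 0.73). Psmb7 was at 54.5 and 41.9 CPM (log2 ratio 0.38, interval 0.30 to 0.46). Psmb7 thus lay below both of the other catalytic genes by more than counting error, but its longest transcript is also longer (2849 bases, against 899 for Psmb5 and 966 for Psmb6). After the length trend of all genes was subtracted the ratios were 0.52 for Psmb7, 0.49 for Psmb5 and 0.49 for Psmb6. That subtraction used the longest transcript, while the longest protein-coding one of Psmb7 has 1160 bases. The trend subtracted was −0.15 for Psmb7, but 0.13 for Psma4, whose longest transcript has 1165 bases. The adjusted ratio of Psmb7 thus depends on the length taken. The non-catalytic Psmb4 and Psmb1 drew the most counts of the ring, at 195 and 139 CPM in RNA-Best against 124 and 94.9 CPM in RNAlater. Psmb3 was at 44.5 and 29.6 CPM. Psmb2 stood apart from all of these at 72.6 CPM in RNA-Best against 71.8 CPM in RNAlater (log2 ratio 0.02, interval −0.05 to 0.08). Of the 14 core genes it alone had an interval that included 0.

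The summed beta ring was at 653 CPM in RNA-Best against 455 CPM in RNAlater (log2 ratio 0.52, interval 0.50 to 0.55), against 0.33 (0.30 to 0.35) for the alpha ring. The intervals of the sums did not overlap, and the medians of the rings differed by 0.30 on the log2 scale. These are levels of transcripts, and the proteins were not measured.

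The promoters of the catalytic genes and of their immune counterparts were read from RefSeq on GRCm38.p6, because proteasome genes are known targets of NRF1 (gene Nfe2l1), a factor that binds antioxidant response elements (ARE), and immunoproteasome genes are known targets of interferon. The bases shown are the 250 before the annotated start, 5′ to 3′ along the gene, and capitals mark a match to the ARE core TGACNNNGC on either strand. They lie at chr14:54617996-54618245 on the minus strand (Psmb5), chr11:70525107-70525356 on the plus strand (Psmb6), chr17:34197945-34198194 on the plus strand (Psmb8) and chr17:34187331-34187580 on the minus strand (Psmb9). Psmb5 and Psmb6 are shown because each holds a match, Psmb8 and Psmb9 because each replaces one of them in the immunoproteasome.
Psmb5: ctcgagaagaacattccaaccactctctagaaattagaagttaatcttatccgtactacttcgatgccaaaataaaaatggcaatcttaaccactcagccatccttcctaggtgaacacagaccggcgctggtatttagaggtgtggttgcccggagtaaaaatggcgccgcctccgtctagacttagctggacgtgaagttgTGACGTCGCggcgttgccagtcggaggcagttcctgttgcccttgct
Psmb6: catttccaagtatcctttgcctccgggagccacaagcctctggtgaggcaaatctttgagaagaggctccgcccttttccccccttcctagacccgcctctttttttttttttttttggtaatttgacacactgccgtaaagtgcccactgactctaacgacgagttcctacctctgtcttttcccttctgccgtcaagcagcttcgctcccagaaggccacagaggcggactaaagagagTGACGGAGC
Psmb8: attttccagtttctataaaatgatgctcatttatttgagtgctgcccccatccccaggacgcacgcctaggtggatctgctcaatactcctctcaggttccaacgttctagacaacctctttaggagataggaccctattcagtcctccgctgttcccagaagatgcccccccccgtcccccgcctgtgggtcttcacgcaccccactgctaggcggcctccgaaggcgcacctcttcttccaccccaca
Psmb9: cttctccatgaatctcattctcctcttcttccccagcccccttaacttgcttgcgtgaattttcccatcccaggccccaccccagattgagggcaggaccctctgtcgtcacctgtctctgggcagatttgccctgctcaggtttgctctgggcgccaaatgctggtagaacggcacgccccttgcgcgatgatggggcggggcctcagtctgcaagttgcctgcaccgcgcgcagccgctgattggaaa
The match in Psmb5 began 47 bases before the start and that in Psmb6 began 9 bases before it, and none was found in the windows of Psmb8 and Psmb9. In GENCODE, Psmb8 begins at base 34197721 and Psmb9 at base 34187764 of chromosome 17. The bases shown for both thus lie inside the gene, downstream of its outermost start. The absence of a match holds for these windows alone. Across the family, 42 members had at least 1 window of 300 bases (250 before to 50 after the start), and 8 did not: Psma8, Psmb1, Psmb2, Psmb7, Psmc3, Psmd3, Psmd7 and Psmg2. Of the 45 windows, 6 (13.3%) held an ARE core, against 12.4% of all 32851 windows. The other 4 were those of Psmc6, Psmd12, Psmd9 and Psme4. The box CCAAT, a common promoter element, was in 15 member windows (33.3%), against 37.4% of all windows. The core of the interferon-stimulated response element (GAAA, any 2 bases, GAAA) was in 5 (11.1%), against 3.44% of all, namely Psmb3, Psmd4, Psmd9, Psme1 and Psmg4. It was in none of the windows taken for Psmb8, Psmb9 and Psmb10, which does not speak for bases upstream of the outermost starts of Psmb8 and Psmb9. All motifs were sought on both strands. The shares of ARE and CCAAT windows in the family were close to those of all promoters. A match is a description of letters and not of a bound site.

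The immunoproteasome genes took a smaller share of each pair in RNA-Best than in RNAlater. Psmb8 (replacing Psmb5) was at 26.4 CPM in RNA-Best against 22.8 CPM in RNAlater (log2 ratio 0.21, interval 0.10 to 0.33). Psmb10 (replacing Psmb7) was at 21.7 and 19.8 CPM (log2 ratio 0.13, interval 0.01 to 0.26). Psmb9 (replacing Psmb6) was at 14.1 and 14.2 CPM (log2 ratio −0.01, interval −0.16 to 0.15), and so was neither higher nor lower. Each of the 3 ratios lay below that of its constitutive partner, by 0.47 for Psmb8, 0.25 for Psmb10 and 0.67 for Psmb9 on the log2 scale. The partners differ in transcript length. With the length trend subtracted the ratios were 0.22 for Psmb8, 0.04 for Psmb10 and 0.14 for Psmb9. Those of Psmb5, Psmb7 and Psmb6 were 0.49, 0.52 and 0.49. The gaps of Psmb8 and Psmb9 were then smaller, and that of Psmb10 larger, with Psmb7 adjusted by its transcript of 2849 bases.

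As a share of the counts of both genes of a pair, Psmb9 took 11.3% (exact Clopper-Pearson interval 10.5 to 12.0) in RNA-Best and 16.9% (15.7 to 18.1) in RNAlater. Psmb10 took 28.5% (27.1 to 29.9) of its pair in RNA-Best and 32.1% (30.4 to 33.9) in RNAlater. Psmb8 took 41.8% (40.1 to 43.5) in RNA-Best and 49.95% (47.8 to 52.1) in RNAlater. In all 3 pairs the intervals of the libraries did not overlap. Exons of other genes overlap those of Psmb9 (Tap1), Psmb8 (Gm20496) and Psmb7 (Nek6) on the opposite strand. Mir686 overlaps Psmb5 on the same strand. Whether strand was used in the counting is not known here, and the intervals do not cover reads counted to the wrong gene. The sum of all 3 pairs gave 23.5% (22.8 to 24.2) and 29.7% (28.7 to 30.7). Shares of counts are not shares of molecules, since long transcripts give more reads.

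Leukocytes are the cells best known for a high immunoproteasome content, so their markers were read beside these shares. Of 13 markers, 12 reached 1 CPM on average. Of these, 5 (41.7%) were higher and 6 (50%) lower in RNA-Best, beside 20.2% and 51.2% of all genes. Their median log2 ratio was −0.16, close to the −0.18 of all genes. With TMM or DESeq2 scaling 6 were higher and 6 lower. The summed level of the 12 markers was 744 CPM in RNA-Best against 774 CPM in RNAlater. Of the defining markers, Ptprc (CD45) was at 13.1 and 17.9 CPM, Csf1r at 17.8 and 30.3 CPM, Cd68 at 10.5 and 16.6 CPM and C1qa at 58.7 and 39.5 CPM, while Cd3e stayed under 1 CPM in both and no marker of the list was at 0. Endothelial markers, which were lower in RNA-Best, summed to 309 CPM in RNA-Best against 663 CPM in RNAlater. The part of leukocytes or endothelium in the shares was not tested.

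**Figure D2:**
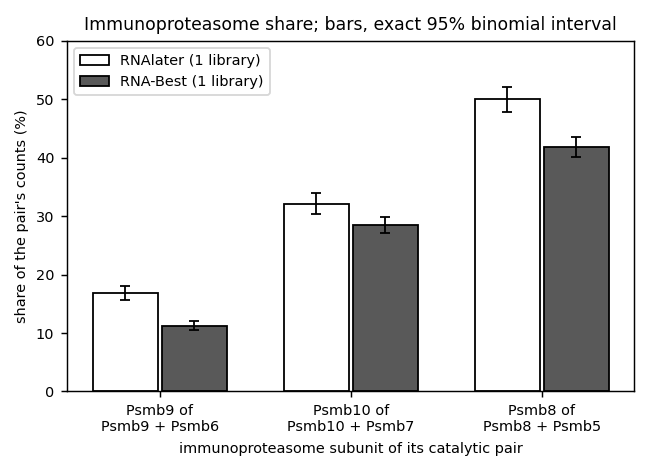
Share of the counts of each catalytic pair taken by its immunoproteasome gene (vertical axis, percent), with white bars for RNAlater, grey bars for RNA-Best (1 library each) and error bars for the exact 95% binomial interval, which covers counting error only. The RNA-Best bar lies below the RNAlater bar in each pair, from 11.3% against 16.9% for Psmb9 to 41.8% against 49.95% for Psmb8.

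The tissue-restricted core genes were near the limit of detection. Psma8, which replaces Psma7 in male germ cells, drew 7 counts in the RNA-Best library and 4 in the other, or 0.130 and 0.0891 CPM. Psmb11, the thymus catalytic subunit, had an estimated 0.8 counts in RNA-Best against 0 in RNAlater, where 3 counts correspond to 0.0668 CPM. Psmb11 lies 3410 bases from Psmb5 on chromosome 14. The log2 ratio of Psma8 was 0.10 with an interval of −1.43 to 2.76, so a difference was not detectable at this depth, and no ratio is given for Psmb11, whose counts were both under 3.

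The base of the 19S particle holds ATPases that unfold the substrate and subunits that receive it. Its ATPases, Psmc1 to Psmc6, were higher in RNA-Best for 4 of 6 genes and lower for 0, with a median log2 ratio of 0.15. Psmc5 had the highest ratio of the ATPases, at 93.8 CPM in RNA-Best against 77.01 CPM in RNAlater (log2 ratio 0.28, interval 0.22 to 0.35). Psmc2 had the lowest, at 84.0 and 81.1 CPM (log2 ratio 0.05, interval −0.01 to 0.11). Psmc3 was at 95.2 and 82.1 CPM, Psmc6 at 79.0 and 69.0 CPM and Psmc4 at 74.6 and 69.3 CPM. Psmc1 was at 78.0 and 74.6 CPM and, like Psmc2, had an interval that included 0.

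The non-ATPases of the base included both of the large scaffold subunits, and these were lower in RNA-Best. Psmd1 was at 63.4 CPM in RNA-Best against 76.4 CPM in RNAlater (log2 ratio −0.27, interval −0.34 to −0.20), the lowest of the 19S particle. Psmd2 was at 121 and 133 CPM (log2 ratio −0.13, interval −0.18 to −0.08), and changed sign with TMM or DESeq2 scaling. The ubiquitin receptor Psmd4 went the other way, at 90.5 and 81.2 CPM (log2 ratio 0.16, interval 0.10 to 0.22). Exons of another gene lie over those of Psmd1 on the same strand in the annotation, so its reads may have been divided.

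Of the lid, 4 of 8 genes were higher in RNA-Best and 2 lower on the scale of column totals, with a median log2 ratio of 0.13. Under TMM or DESeq2 scaling 7 were higher and 0 lower, and with totals that left out Prl and Gh 6 were higher and 0 lower. Psmd13 was at 69.6 CPM in RNA-Best against 43.2 CPM in RNAlater (log2 ratio 0.68, interval 0.61 to 0.77), and lay level with Psmb5, the highest gene of the core. Exons of Sirt3 overlap those of Psmd13 on the opposite strand, and whether strand was used in the counting is not known here. Psmd8 followed at 88.7 and 63.4 CPM. Psmd6 was at 66.5 and 54.8 CPM, and Psmd14, the deubiquitinase of the lid, at 66.0 and 56.3 CPM. Psmd7, its partner, was at 76.9 and 75.2 CPM and Psmd12 at 57.9 and 57.0 CPM, and neither of them differed beyond counting error. Psmd11 was at 51.0 CPM in RNA-Best against 58.6 CPM in RNAlater (log2 ratio −0.20, interval −0.28 to −0.12), the lowest of the lid. Psmd3 was also lower in RNA-Best, at 81.2 and 88.1 CPM, and TMM or DESeq2 scaling turned its ratio positive. Neither gene was counted as lower under TMM, DESeq2 or totals without Prl and Gh.

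**Figure D3:**
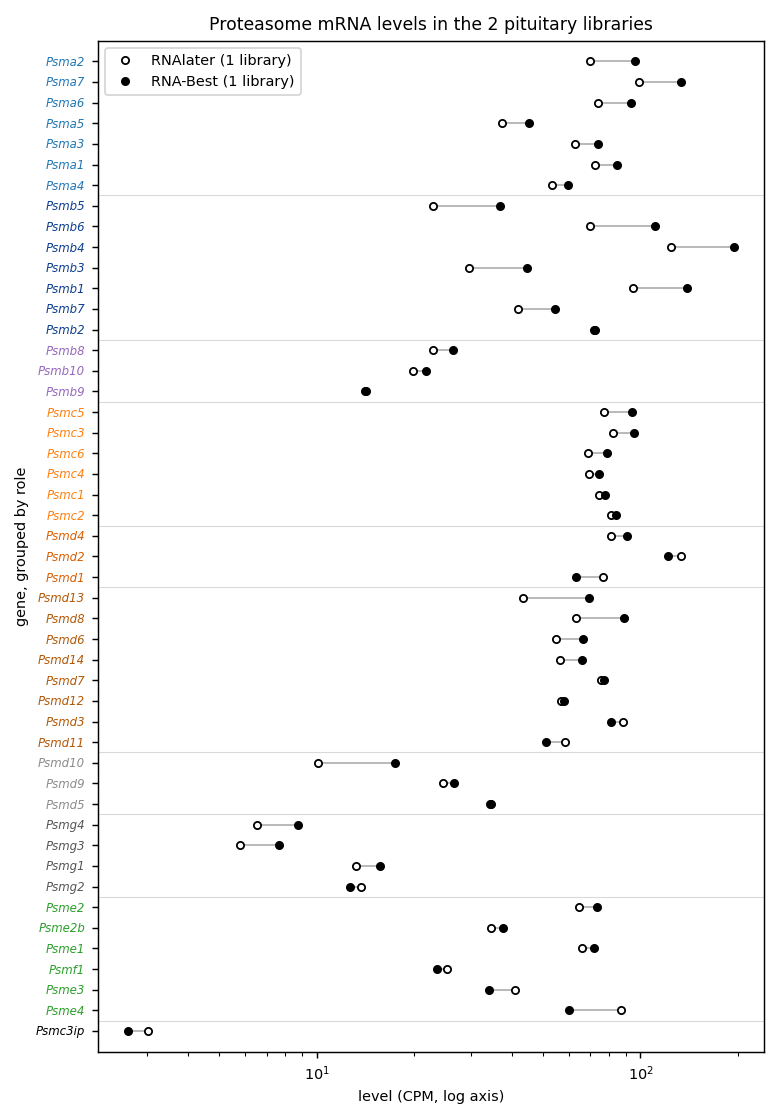
Level in CPM (horizontal log axis) of each of the 48 members, 1 row per gene grouped by role, with an open circle for RNAlater, a filled circle for RNA-Best (1 library each) and a grey line joining them. The members run from Psmc3ip at 2.62 and 3.01 CPM to Psmb4 at 195 and 124 CPM, and the filled circle lies to the right of the open one for each gene of the alpha and beta rings, where those of Psmb2 all but coincide.

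The core genes had higher ratios than the regulatory genes, and the groups overlapped. The median log2 ratio was 0.40 for the 14 core genes and 0.11 for the 17 regulatory genes, a difference of 0.30. Of the core genes, 13 of 14 lay above the regulatory median, and 2 of the 17 regulatory genes (Psmd13 and Psmd8) lay above the core median. Of the regulatory genes, 13 lay above the lowest core gene, Psmb2, and 0 core genes lay above the highest regulatory gene, Psmd13. Summed levels gave the same order. The core summed to 1239 CPM in RNA-Best against 923 CPM in RNAlater (log2 ratio 0.43, interval 0.41 to 0.44). The regulatory particle summed to 1338 and 1240 CPM (log2 ratio 0.11, interval 0.09 to 0.12). These genes are not replicates, and the comparison describes these 2 libraries.

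Transcript length moved with the ratio over all genes and was read beside this difference. Over 16443 genes with an annotated length, the Spearman correlation of the ratio with the length of the longest transcript was −0.638, and the median ratio went from 0.28 for transcripts up to 1 kb to −0.65 for those of 6 to 10 kb. Core transcripts were shorter, with a median of 1.22 kb against 1.98 kb for regulatory ones and 3.09 kb for all genes. Among transcripts of 1 to 2 kb the median ratio was 0.39 for 8 core genes, 0.22 for 10 regulatory genes and 0.07 for all genes. Above 2 kb it was 0.38 for 3 core genes and −0.12 for 7 regulatory genes. After the length trend of all genes was subtracted, the median was 0.43 for the core and 0.18 for the regulatory particle, which left a difference of 0.26. With that subtraction, 13 of 14 core and 14 of 17 regulatory genes lay above the trend.

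Within the regulatory particle the Spearman rho of ratio and length was −0.586 (17 genes), and within the core it was 0.00659 (14 genes). Over the 48 members rho was −0.432. With the median in place of the longest transcript length it was 0.0952 over the members and 0.0809 over the regulatory genes, so the relation within the family depends on the length taken, while over all genes it was −0.428. These are correlations across genes of the same libraries, and genes are not independent replicates. Both ends of the family were of very unequal length: Psmd10 has a longest transcript of 1430 bases and Psme4 one of 6491 bases. At 0.08 Psme4 lay close to the length trend of all genes, whereas Psmd10 lay 0.69 above it and Psmd13 0.70 above it.

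**Figure D4:**
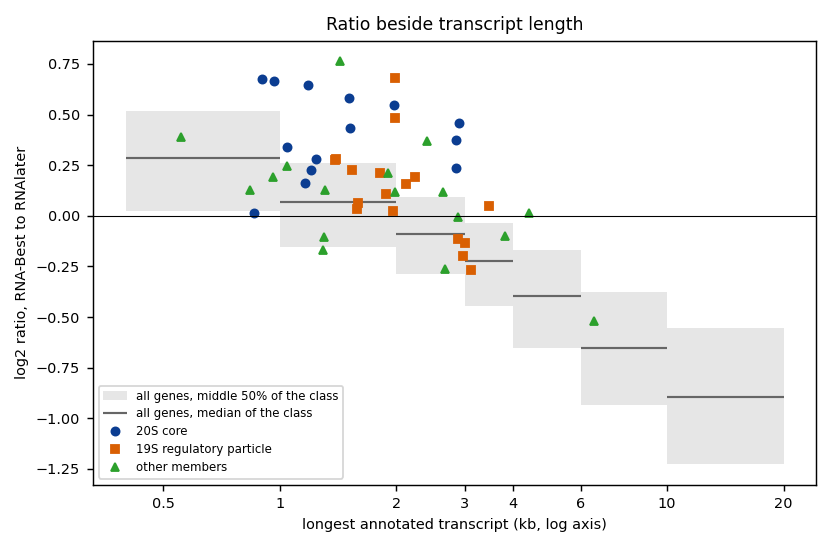
Log2 ratio of RNA-Best to RNAlater (vertical axis) against the longest annotated transcript in kb (horizontal log axis), with circles for the 20S core, squares for the 19S particle and triangles for the other members, over grey boxes for the middle 50% and lines for the median of all genes in each length class (the shortest class is drawn from 0.4 kb and the longest to 20 kb). The all-gene medians go from 0.28 in the shortest to −0.90 in the longest class, and 20 of the 25 members of 1 to 2 kb lie above the median of their class.

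Levels per kilobase of the longest transcript allow genes to be compared with each other. The core spread more widely than the regulatory particle on this scale. In RNA-Best the core had a median level of 60.8 CPM per kb and ran from 19.1 for Psmb7 to 164 for Psmb4, an 8.61-fold range, with a coefficient of variation of 61.9%. The regulatory genes had a median of 40.4 CPM per kb and ran from 17.1 for Psmd11 to 67.3 for Psmc5, a 3.93-fold range, with a coefficient of variation of 32.5%. In RNAlater the medians were 46.9 CPM per kb for the core and 36.6 for the regulatory particle, with ranges of 7.14-fold and 2.81-fold. The wider spread of the core was seen in both libraries, which share the same lengths. The difference between the medians depends on the length taken: it was 20.4 CPM per kb in RNA-Best and 10.4 in RNAlater with the longest transcript, and 3.99 and 2.01 with the median transcript length. The longest transcript is not always the one expressed: that of Psmb7 is 2849 bases long and its longest protein-coding one 1160 bases.

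**Figure D5:**
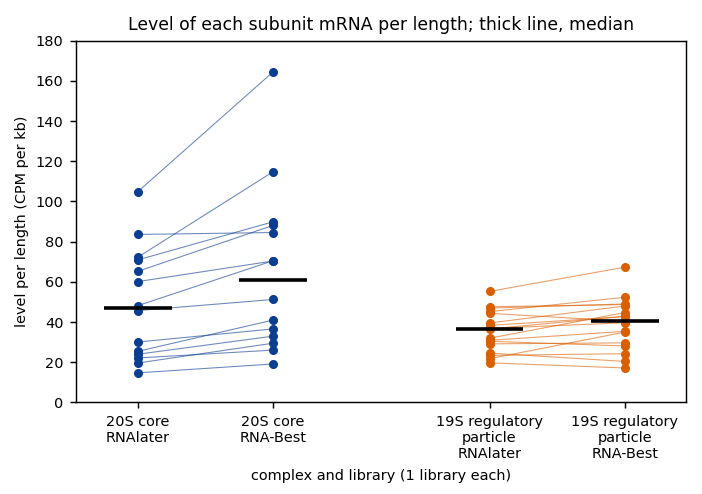
Level per kb of the longest annotated transcript (vertical axis, CPM per kb) of the 14 core and 17 regulatory genes in RNAlater and RNA-Best (1 library each), with 1 point per gene, thin lines joining the values of a gene and thick lines for the median. The core points spread from 19.1 to 164 in RNA-Best and the regulatory points from 17.1 to 67.3.

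Assembly of the 19S base and of the core is helped by chaperones that leave the finished particle. Psmd10 (gankyrin, ENSMUSG00000031429, chrX:140948429-140956728 on GRCm38) is a chaperone of the 19S base and was at 17.5 CPM in RNA-Best against 10.1 CPM in RNAlater. Its log2 ratio of 0.77 (0.63 to 0.96), a 1.70-fold difference on this scale, was the highest of the family. The other base chaperones lay nearer to 0. Psmd9 was at 26.6 and 24.5 CPM (log2 ratio 0.12, interval 0.00 to 0.23), and Psmd5 at 34.6 and 34.2 CPM (log2 ratio 0.01, interval −0.08 to 0.11). The lower bound of Psmd9 was just above 0, so it was counted as higher.

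Of the chaperones that build the core, 3 of 4 were higher in RNA-Best. Psmg4 was at 8.74 CPM in RNA-Best against 6.55 CPM in RNAlater (log2 ratio 0.39, interval 0.20 to 0.63), and Psmg3, its partner in the complex, at 7.66 and 5.81 CPM. Psmg1 was at 15.7 and 13.2 CPM. Psmg2, the partner of Psmg1, was at 12.7 and 13.7 CPM (log2 ratio −0.11, interval −0.27 to 0.05).

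The activators that dock on the core in place of the 19S cap went in both directions. The interferon-inducible 11S subunits were slightly higher in RNA-Best, with Psme1 at 71.9 CPM in RNA-Best against 66.1 CPM in RNAlater. Psme2 was at 73.6 and 64.4 CPM (log2 ratio 0.19, interval 0.12 to 0.26), the highest of the activators, and Psme2b at 37.7 and 34.5 CPM. Psme2 and Psme2b are near-identical copies whose reads cannot be assigned with certainty, and their sum gave a log2 ratio of 0.17 (0.12 to 0.23). Psme3, the nuclear member of the 11S family, was lower in RNA-Best, at 34.0 and 40.9 CPM, but was not counted as lower under TMM or DESeq2 scaling. Psme4 (PA200, ENSMUSG00000040850, chr11:30771726-30880361 on GRCm38), an activator of a single large chain, was at 60.4 CPM in RNA-Best against 86.8 CPM in RNAlater (log2 ratio −0.52, interval −0.59 to −0.46), the lowest of the family. Psmf1 (PI31), which inhibits the core in vitro, was at 23.5 and 25.3 CPM and was neither higher nor lower. Psmc3ip carries a matching symbol but encodes a meiotic recombination factor, and was at 2.62 and 3.01 CPM.

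Genes that act with the proteasome were read from a list of other pathway members. Of 29 such genes, 6 (20.7%) were higher in RNA-Best and 19 (65.5%) lower, beside 20.2% and 51.2% of all genes, with a median log2 ratio of −0.19, close to the −0.18 of all genes. This split moved to 12 higher and 12 lower with TMM scaling and to 12 and 13 with DESeq2 size factors. The subunits that lack a Psm symbol were Adrm1, a ubiquitin receptor of the base, at 30.7 CPM in RNA-Best against 31.5 CPM in RNAlater, and Sem1, a small lid subunit, at 98.3 and 84.8 CPM. Pomp, the maturation factor of the core, was at 76.2 and 63.0 CPM and was counted as higher. Nfe2l1, which encodes NRF1, was at 210 CPM in RNA-Best against 310.4 CPM in RNAlater (log2 ratio −0.56, interval −0.60 to −0.53). Ddi2, the protease that activates NRF1, was the lowest of the list at 22.5 and 46.1 CPM (log2 ratio −1.02, interval −1.14 to −0.93). Both have long transcripts, of 4654 bases for Nfe2l1 and 9553 for Ddi2. With the length trend of all genes subtracted, the ratios were −0.17 for Nfe2l1 and −0.24 for Ddi2.

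Of the genes that encode ubiquitin itself, Ubb was at 2852 CPM in RNA-Best against 2556 CPM in RNAlater (log2 ratio 0.16, interval 0.15 to 0.17). Rps27a, which encodes ubiquitin fused to a ribosomal protein, was at 250.5 and 159.8 CPM (log2 ratio 0.65, interval 0.61 to 0.69). Both were counted as higher. The longest transcript of Rps27a has 928 bases and that of Ddi2 has 9553 bases. Ribosomal protein genes have many processed copies in the genome, so the count of Rps27a is uncertain.

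Part of the counting is uncertain for the members too. The deposited counts are not whole numbers for 27 of the 50 members, of which 19 overlap no exon of another gene, so some of their reads were divided between places. Exons of another gene overlap those of 15 members, on the same strand for 4 and on the opposite strand for 12. The 4 listed pseudogenes of the family had few counts, of which Psmb6-ps2 had the most at 42.5 in RNA-Best against 13 in RNAlater. Among the 22 members above 1 CPM with whole counts in both libraries, 13 were higher in RNA-Best and 1 lower, and the median log2 ratio was 0.36 for 4 core genes and 0.13 for 6 regulatory genes.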

How the data were processed

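Poly(A) RNA of dissociated mouse pituitary cells was measured in 2 libraries, grouped by the stabilizer in the labels. The authors deposited 1 table of estimated counts per gene, not normalized. Per the submitters' processing notes, reads were aligned with STAR 2.5.1b to mm10 and counted with featureCounts 1.5.0-p1. The fractional counting option and the strand setting are not given in the sources used here. Symbols, types and transcript lengths came from GENCODE M21 (GRCm38), which matched 46488 of 47069 identifiers. Motifs were searched in RefSeq promoter windows.

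Counts were scaled by column totals. A gene entered the comparison at a mean CPM of 1 or more, and a pseudocount of 0.5 CPM, which understates the ratio of weakly expressed genes, was added for log2 ratios. Counts were rounded for 95% exact binomial intervals. The length trend was a LOWESS curve (span 0.2, statsmodels 0.14.6). The alternatives used TMM (edgeR 4.0.16) and DESeq2 1.42.0 factors, totals without Prl and Gh, other pseudocounts and filters, members with whole counts, and other transcript lengths. The steps were tested on simulated data. The linear model of the study could not be fitted with 1 library per group.

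Every member is named with its CPM, and ratios are given for the ends of each list, for the catalytic genes and for their replacements. The members and lists were chosen with earlier results of these data known. ERCC spike-in controls were not analysed here. Some genes of the pathway list enter its counts and are not reported here by name.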

Additional observations from a re-analysis of the deposited data

How the results depend on the processing

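Of 55 recomputed values, 32 stayed close to the reported value, 23 moved, and 0 changed sign. The counts of members among the 55 have no sign to change, so the 0 bears only on the ratios and differences. Close meant inside the counting interval for a ratio of sums, and within 1.5 times for a count of members. For medians and their differences the tolerance was built from the typical counting interval of 1 gene. That tolerance is wide: for the core median it was 0.34 to 0.48, against 0.41 to 0.44 for the summed core. Scaling moved both medians together. The core and regulatory medians were 0.59 and 0.30 with TMM, 0.59 and 0.29 with DESeq2 size factors, and 0.53 and 0.23 with totals that left out Prl and Gh. The log2 ratios of the summed core and regulatory counts were 0.62 and 0.30 (TMM), 0.61 and 0.29 (DESeq2), and 0.55 and 0.24 (without Prl and Gh). The members lower in RNA-Best numbered 2, 2 and 3 under these scalings, against 6. The difference between the core and regulatory medians is no check under these 3 scalings, since each adds nearly the same amount to every ratio, and its 3 values are among the 32. The core and regulatory ratios without a filter, or with a mean of at least 10 CPM, are no check either. Both settings kept the same 14 core and 17 regulatory genes, so these values could not move, and they too are among the 32. With totals that left out Prl and Gh, 38 members were higher, 29.08% of all genes were higher and 40.25% lower, and Psmb9, Psmd3, Psmf1 and Psmg2 changed sign. With members of whole counts alone, the summed ratios were 0.29 (core) and 0.14 (regulatory), and 13 members were higher and 1 lower, from fewer members. Subtracting the length trend raised the regulatory median to 0.18. The difference between the core and regulatory medians in level per kb was 20.4 CPM per kb in RNA-Best and 10.4 in RNAlater with the longest transcript. It was 5.94 in RNAlater with the longest protein-coding transcript, and 3.99 in RNA-Best and 2.01 in RNAlater with the median transcript length, so its size depends on the length taken. No paired analysis was possible because only 1 library stood for each stabilizer, and for the same reason no library could be left out. Depth limits most the values of Psma8 and Psmb11.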
